A study of Mus musculus with 6 samples.

Results

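Semaphorins are secreted or membrane-bound guidance proteins, and plexins are the receptors that answer them. The 9 genes described here are the semaphorin and plexin genes of vessels Sema3c, Sema3f, Sema3g, Sema6a, Sema6d, Sema7a, Plxna2, Plxnb2 and Plxnd1, chosen by symbol. All 9 were found among the 24520 gene identifiers of the deposited table, and all 9 were among the 12748 genes tested. They were measured by RNA sequencing in endothelial cells that were sorted by flow cytometry from mouse lung. There were 3 libraries from wild-type mice aged 18 months (labelled aged) and 3 from wild-type mice aged 8 months (labelled mAdu), with no agent named in the labels, and the title of the series names DNMT3A-dependent DNA methylation and the endothelial enhancer landscape. The sources used here do not give the sort markers, the sex or any pooling of animals. Nothing in the labels ties each library to a mouse of its own. The p-values therefore cover only library-to-library spread, some of which may be technical.

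Class 3 semaphorins are secreted, and most of them act through a complex of a plexin with a neuropilin, which binds the ligand and has no signalling domain of its own. Semaphorins of class 6 span the membrane and bind A-type plexins directly, and Sema7a is held to the membrane by a lipid anchor and binds Plxnc1 and the integrin subunit Itgb1. The inner part of a plexin switches off small GTPases of the Ras and Rap family, and in vessels these signals steer sprouting, cell spreading and the strength of cell contacts.

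Values are TPM, transcript abundance relative to the total of a library and corrected for transcript length, so levels of different genes may be set side by side. The deposited values summed to 872100 to 876130 TPM in the 18-month libraries and 869310 to 875780 TPM in the 8-month libraries. Part of each library's TPM thus lies outside the deposited genes. The depth of the libraries is unknown and no counting error can be given. Endothelial markers were high. The 8 markers summed to 11294, 10541 and 10898 TPM in 18-month cells, against 12529, 12738 and 11424 TPM in 8-month cells, without overlap. Of these, 7 had lower values at 18 months, among them Cdh5 with a mean of 734.7 TPM in 18-month and 891.7 TPM in 8-month cells, and 0 passed the limma test. Pecam1 was the exception, at 1354 and 1351 TPM. The summed TPM of 7 epithelial markers ranged from 9317 to 18953 at 18 months and from 10801 to 19670 at 8 months, and that of 10 myeloid markers from 913.8 to 1706 and from 619.0 to 1772. The third 8-month library was highest in both sums, and both overlapped between the ages. Of the 6 epithelial markers tested, 3 had higher and 3 lower values at 18 months. Most of the epithelial sum was Scgb1a1 and Sftpc. Scgb1a1 had means of 9171 TPM at 18 months and 6312 TPM at 8 months, and Sftpc 5510 and 7471 TPM. Epcam averaged 0.501 TPM at 18 months and 0.731 TPM at 8 months. All 8 myeloid markers tested had higher values at 18 months, their log2 differences had a median of 0.66, and 0 passed the test. The macrophage gene Chil3 had 140.5, 390.6 and 248.8 TPM in 18-month cells, against 26.7, 31.4 and 140.1 TPM in 8-month cells, the one myeloid marker tested whose ages did not overlap (limma adjusted p = 0.19). The part of myeloid cells in the members' differences was not tested. The 5 nerve and Schwann cell markers summed to at most 3.60 TPM in any 18-month library and 3.50 TPM in any 8-month library, and the 3 mesothelial markers to at most 0.415 and 0.201 TPM.

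The upstream sequence of 3 members is shown because methylation, the subject of the series, sits on CpG dinucleotides. Each window runs from 250 to 21 bases before the start annotated by RefSeq (GRCm38.p6), is written 5′ to 3′ on the strand of the gene, and has CpG in capitals. Sema3g carried 8 CpG (chr14:31217623-31217852, plus strand), Plxnb2 17 (chr15:89180809-89181038, minus strand) and Plxnd1 15 (chr6:115995026-115995255, minus strand).
Sema3g: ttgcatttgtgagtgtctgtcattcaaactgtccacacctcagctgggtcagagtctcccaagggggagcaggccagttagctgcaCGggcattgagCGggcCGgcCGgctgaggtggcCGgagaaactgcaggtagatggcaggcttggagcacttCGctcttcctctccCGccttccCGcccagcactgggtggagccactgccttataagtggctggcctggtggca
Plxnb2: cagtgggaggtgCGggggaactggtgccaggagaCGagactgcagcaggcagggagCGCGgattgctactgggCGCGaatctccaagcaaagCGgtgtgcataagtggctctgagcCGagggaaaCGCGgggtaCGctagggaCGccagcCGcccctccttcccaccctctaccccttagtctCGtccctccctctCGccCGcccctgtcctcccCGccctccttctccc
Plxnd1: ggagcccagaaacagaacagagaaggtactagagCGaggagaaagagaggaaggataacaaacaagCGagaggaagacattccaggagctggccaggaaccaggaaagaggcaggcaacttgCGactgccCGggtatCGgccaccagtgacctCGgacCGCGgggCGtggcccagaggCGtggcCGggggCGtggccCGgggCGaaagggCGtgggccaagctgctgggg
The 3 windows printed lie outside the exons that GENCODE annotates for these genes. Windows were found for 7 of the 9 members, 9 in all, with none for Sema3f and Sema6a. The CpG counts of these windows ran from 6 at the second start of Sema6d to 36 at Sema3c. Over 32851 windows of the same length the median was 5 CpG and the quartiles were 2 and 14. The Sema3c count was above that of 98.4% of all windows. That window, at 17574566 to 17574795, lies inside the gene as GENCODE bounds it, past the start at 17574281. The Plxna2 window and those at the second starts of Sema6d and Plxnb2 likewise lie inside their genes. A GC box, GGGCGG on either strand, was in 7 of the 9 member windows and in 29.8% of all windows. TATAAA was in 0 of 9 and in 11.8%. The windows compared were not matched for GC content. It ran from 46.5 to 78.7% in the member windows, against a median of 51.7% over all windows. No methylation was measured in the 6 libraries, and no relation of these letters to the values below was tested.

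In the age comparison, no member passed the test. Of the 9 members, 0 had an adjusted p under 0.05 by limma (moderated test on log2(TPM + 1) over all 12748 genes, Benjamini-Hochberg adjustment), where 3 of all genes, 0.0235%, passed. At an unadjusted p under 0.05 there were 3 of the 9, against 13.4% of all genes. The values that stood apart were those of the secreted ligand Sema3c, higher at 18 months in every library, and of the secreted Sema3f and the transmembrane Sema6a, lower in every library. The ages did not overlap in these 3 of 9 members and in 18.7% of all genes tested, with 4.48% of all genes on the higher and 14.2% on the lower side. The log2 difference was below 0 in 6 of the 9 members and in 66.2% of all genes. Its median was -0.31 over the members and -0.08 over all genes, and the median of the members was -0.18 without the second 18-month library. The members' shares of lower values were thus near the background.

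**Figure D1:**
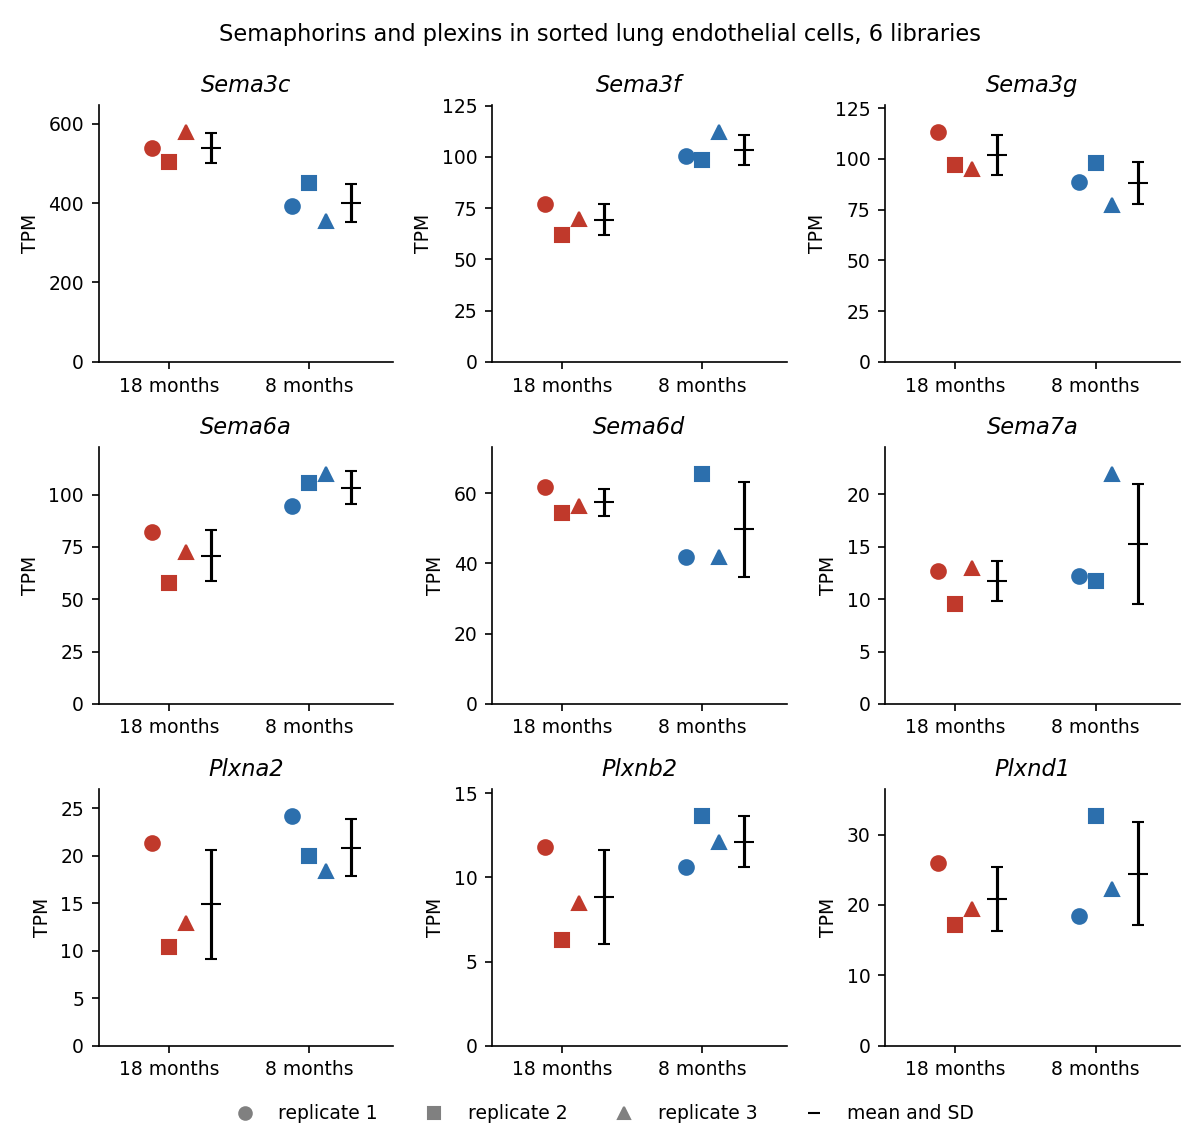
TPM of the 9 members in each of the 6 libraries, 18 months in red and 8 months in blue, with replicates as circle, square and triangle and the mean and SD beside them. Sema3c lies between 502.1 and 577.6 TPM at 18 months, above all 8-month libraries, while Sema3f and Sema6a at 18 months lie below all 8-month libraries.

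Among the secreted ligands, Sema3c (chromosome 5, 17574281 to 17730268, plus strand, GRCm38) was the most abundant. It is a class 3 semaphorin that binds both neuropilins and is known for guiding cells of the cardiac outflow tract. The 18-month libraries held 537.2, 502.1 and 577.6 TPM, the 8-month libraries 392.9, 450.2 and 354.5 TPM. All 3 values at 18 months lay above the highest value at 8 months. The means were 538.9 ± 37.8 TPM in 18-month and 399.2 ± 48.2 TPM in 8-month cells (SD, n = 3 each), a ratio of 1.35. On log2(TPM + 1) the difference was 0.44 with an SE of 0.11 and a 95% interval from 0.17 to 0.70 (limma adjusted p = 0.19). It stayed between 0.35 and 0.53 under 19 other settings, at adjusted p from 0.067 to 0.41.

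Sema3f (chromosome 9, 107681500 to 107710475, minus strand) is the class 3 semaphorin that signals mainly through Nrp2 and is known to repel endothelial and tumour cells. Its libraries read 76.9, 61.9 and 69.5 TPM in 18-month cells, against 100.3, 98.4 and 112.0 TPM in 8-month cells. The groups did not overlap, and the nearest pair of libraries was over 20 TPM apart. Means of 69.4 ± 7.50 TPM in 18-month and 103.6 ± 7.36 TPM in 8-month cells (SD, n = 3 each) differed by -0.57 on the log2 scale (95% interval -0.83 to -0.32). Its unadjusted p of 9.3e-04 was the smallest among the members, and its limma adjusted p was 0.13. With limma's library weights Sema3f had an adjusted p of 0.047, in a setting where 94 of all genes passed, against 3 as reported. Over the 19 other settings that p ranged from 0.047 to 0.31. The log2 difference ranged from -0.65 to -0.44, the latter when GC content and transcript length were adjusted for. Its neighbour 72270 bases away on the same strand, Sema3b, another secreted class 3 semaphorin, read 19.5, 13.5 and 15.7 TPM in 18-month cells, against 16.1, 24.9 and 23.6 TPM in 8-month cells, so that the ages overlapped.

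Sema3g (chromosome 14, 31217860 to 31230352, plus strand), known as a semaphorin of arterial endothelium that binds Nrp2, overlapped between the ages. Its libraries read 113.1, 97.3 and 95.1 TPM in 18-month cells, against 88.9, 98.1 and 77.5 TPM in 8-month cells. The second 8-month library exceeded 2 of the 3 libraries at 18 months. The log2 difference was 0.21 with an interval from -0.07 to 0.49 (limma adjusted p = 0.51). It was 0.12 without the third 8-month library and 0.13 without the first 18-month library. The summed TPM of 7 arterial markers was 811.1, 942.1 and 851.4 at 18 months and 687.3, 695.2 and 550.5 at 8 months. All 7 had higher values at 18 months, and 0 passed the limma test. Most of the sum was Gja4, with means of 558.4 TPM at 18 months and 366.5 TPM at 8 months, without overlap. The other arterial markers overlapped, with log2 differences from 0.02 in Efnb2 to 0.30 in Hey1. The part of arterial cells in the Sema3g values was not tested. In these mixed cell populations, fewer cells of a type and less RNA per cell cannot be told apart.

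Summed over the 7 class 3 genes, the secreted ligands came to 749.7, 677.1 and 760.6 TPM in 18-month cells, against 601.4, 675.0 and 571.0 TPM in 8-month cells. The sums did not overlap, although the second libraries of the 2 ages differed by little. Sema3c made up 73.9 ± 2.15% of this sum at 18 months and 64.7 ± 2.38% at 8 months (SD, n = 3 each). Sema3f made up 9.51 ± 0.644% and 17.0 ± 2.53%, while Sema3g held 14.0 ± 1.33% and 14.3 ± 0.636%. Within a library the ratio of Sema3c to Sema3f does not depend on scaling. It was 6.99, 8.12 and 8.31 at 18 months and 3.92, 4.58 and 3.17 at 8 months, with no overlap. Since Sema3c lay higher and Sema3f lower in every 18-month library, this ratio could not overlap, and it adds no evidence to the values of the genes themselves. The sum, the shares and the ratio are given as descriptions without a test.

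**Figure D2:**
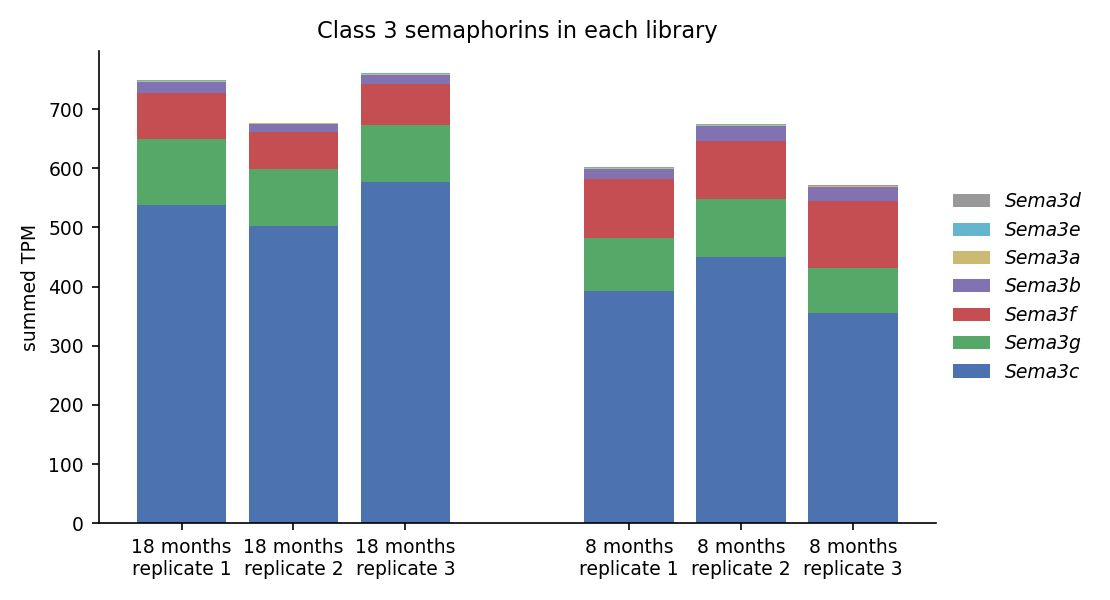
Summed TPM of the 7 class 3 semaphorin genes in each library, stacked by gene, with the 18-month libraries on the left. Sema3c forms 71.7 to 75.9% of each bar at 18 months and 62.1 to 66.7% at 8 months, and the Sema3f segment is smaller at 18 months in every library.

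The membrane-bound ligands differed among themselves. Sema6a (chromosome 18, 47235598 to 47368870, minus strand) binds Plxna2 and Plxna4. Its libraries read 81.9, 57.8 and 72.3 TPM in 18-month cells, against 94.5, 105.6 and 109.7 TPM in 8-month cells. No 18-month library reached the lowest 8-month library. The means were 70.7 ± 12.2 TPM in 18-month and 103.3 ± 7.83 TPM in 8-month cells (SD, n = 3 each), and the log2 difference was -0.55 (95% interval -0.87 to -0.23, limma adjusted p = 0.19).

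Sema6d (chromosome 2, 124089969 to 124667770, plus strand), a ligand of Plxna1 known from heart development, read 61.7, 54.3 and 56.3 TPM in 18-month cells, against 41.9, 65.4 and 41.8 TPM in 8-month cells. The second 8-month library was the highest of all 6 and the other two of that age were the lowest. The log2 difference was 0.24 with an interval from -0.18 to 0.65 (limma adjusted p = 0.62), and without that library it was 0.45. It was 0.13 without the first 8-month library and likewise 0.13 without the third.

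Sema7a (chromosome 9, 57940112 to 57962865, plus strand), which also acts in immune cells, read 12.6, 9.52 and 13.0 TPM in 18-month cells, against 12.2, 11.7 and 21.9 TPM in 8-month cells. One library, the third of the 8-month group, stood above the rest. It was also the library with the highest summed epithelial, myeloid and lymphocyte markers, the last at 45.8 TPM against 15.4 to 21.7 TPM in the others, and the part of these cells in the Sema7a value was not tested. The log2 difference of -0.31 (interval from -0.88 to 0.25, limma adjusted p = 0.64) was -0.04 without it. It was -0.18 without the second 18-month library and -0.20 when GC content and transcript length were adjusted for.

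All 3 member plexins had lower means at 18 months with groups that overlapped. Plxna2 (chromosome 1, 194618218 to 194816869, plus strand), a receptor of class 6 semaphorins and, with a neuropilin, of class 3, read 21.4, 10.4 and 12.9 TPM in 18-month cells, against 24.2, 20.0 and 18.4 TPM in 8-month cells. The first 18-month library lay within the 8-month range and the other two below it. The log2 difference was -0.51 with an interval from -1.08 to 0.06 (limma adjusted p = 0.43). It was -0.79 without the first and -0.30 without the second 18-month library.

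Plxnb2 (chromosome 15, 89155549 to 89180788, minus strand) is a receptor of class 4 semaphorins that is widely expressed in epithelium and myeloid cells. Its libraries read 11.8, 6.27 and 8.47 TPM in 18-month cells, against 10.6, 13.6 and 12.1 TPM in 8-month cells. Again the first 18-month library fell inside the 8-month range. The log2 difference was -0.45 with an interval from -0.95 to 0.05 (limma adjusted p = 0.43). Leaving out the second 18-month library gave -0.25.

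Plxnd1 (chromosome 6, 115954811 to 115995005, minus strand) is the plexin best known from endothelium, bound directly by Sema3e and, with a neuropilin, by other class 3 ligands. Its libraries read 26.0, 17.2 and 19.4 TPM in 18-month cells, against 18.5, 32.6 and 22.2 TPM in 8-month cells. The ages were interleaved. The log2 difference of -0.20 had an interval from -0.73 to 0.33 (limma adjusted p = 0.77) and was 0.02 without the second 8-month library or when GC content and transcript length were adjusted for. It was -0.37 without the first 8-month, -0.36 without the first 18-month and -0.08 without the second 18-month library. Its direct ligand Sema3e was near the lower limit of the test at 1.06 to 1.64 TPM at 18 months and 0.902 to 1.32 TPM at 8 months.

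Plexin transcripts are long, at 6497 to 11040 bases for the longest annotated form of the 3 members. Over the 2588 tested genes with a longest form of at least 5000 bases the median log2 difference was -0.10, against -0.07 over the 10070 shorter ones, and it was -0.45 over the 3 member plexins. The second 18-month library was the lowest of its age in 8 of the 9 members, Sema3g being the exception. How many of all genes were lowest there was not counted, so this is not shown to be particular to the members. The median-of-ratios scaling factor of that library was 0.909, against 0.977 to 1.09 in the other libraries. With that scaling the differences were -0.42 for Plxna2, -0.36 for Plxnb2 and -0.11 for Plxnd1. With GC content and transcript length adjusted for instead, they were -0.47, -0.30 and 0.02. The part of transcript length in the lower plexin values was not tested.

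**Figure D3:**
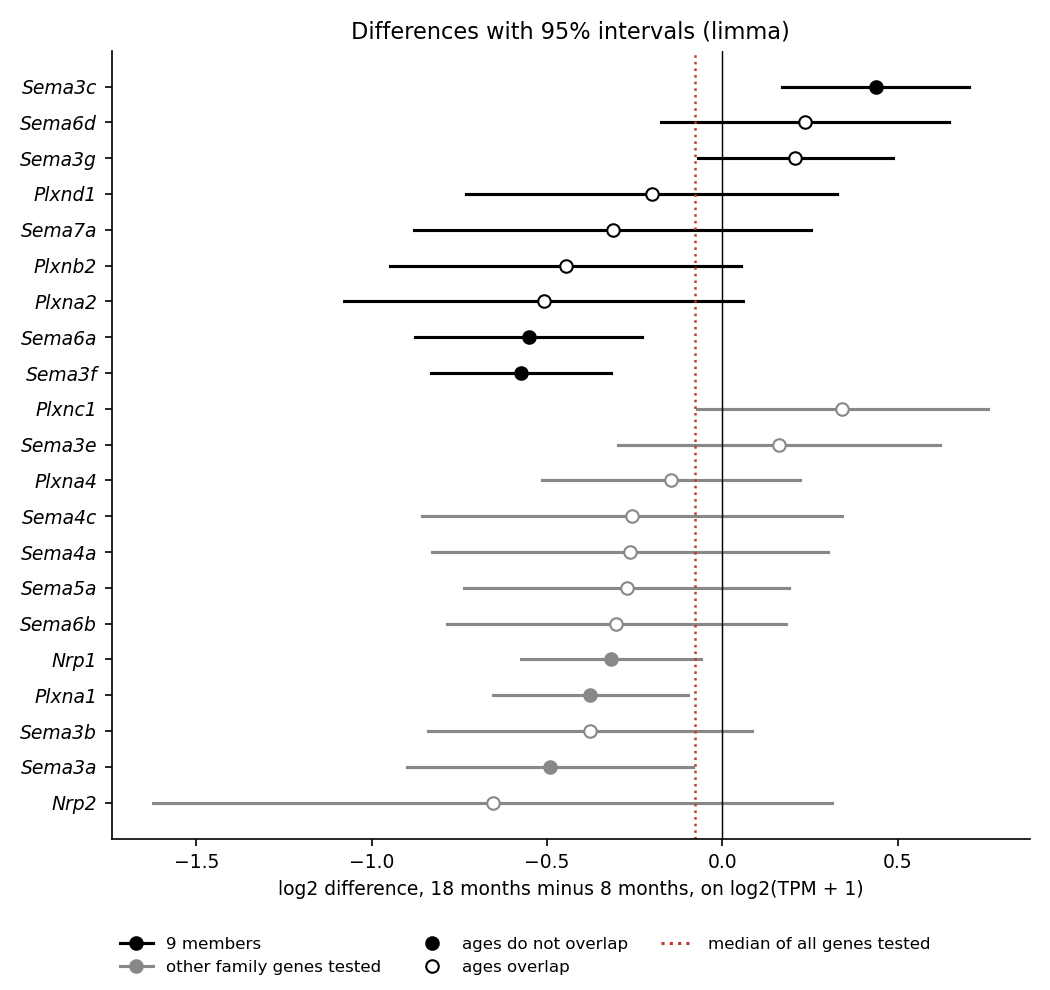
Log2 difference on log2(TPM + 1), 18 months minus 8 months, with limma's 95% interval, for the 9 members in black and the 12 other tested genes of the family in grey. Filled points mark genes whose ages do not overlap, and the dotted line is the median of all genes tested at -0.08. Sema3c lies to the right of 0 and Sema3f and Sema6a to the left with intervals that leave out 0, before adjustment.

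By level, the members spanned a wide range that was much the same at both ages. At 18 months the order of mean TPM was Sema3c, Sema3g, Sema6a, Sema3f, Sema6d, Plxnd1, Plxna2, Sema7a and Plxnb2, from 538.9 down to 8.84 TPM. At 8 months it was Sema3c, Sema3f, Sema6a, Sema3g, Sema6d, Plxnd1, Plxna2, Sema7a and Plxnb2, from 399.2 down to 12.1 TPM. Sema3g and Sema3f changed places between the orders. Sema3c ranked 267 among the 12748 tested genes by its mean over all libraries and Plxnb2 7477. The libraries of Sema6a and Sema3f overlapped at 18 months, as did those of Sema3f, Sema6a and Sema3g as neighbours at 8 months. Neighbours from Plxnd1 down to Plxnb2 overlapped at both ages. Sema3c and the gene below it, and Sema6d and Plxnd1, did not overlap at either age.

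**Figure D4:**
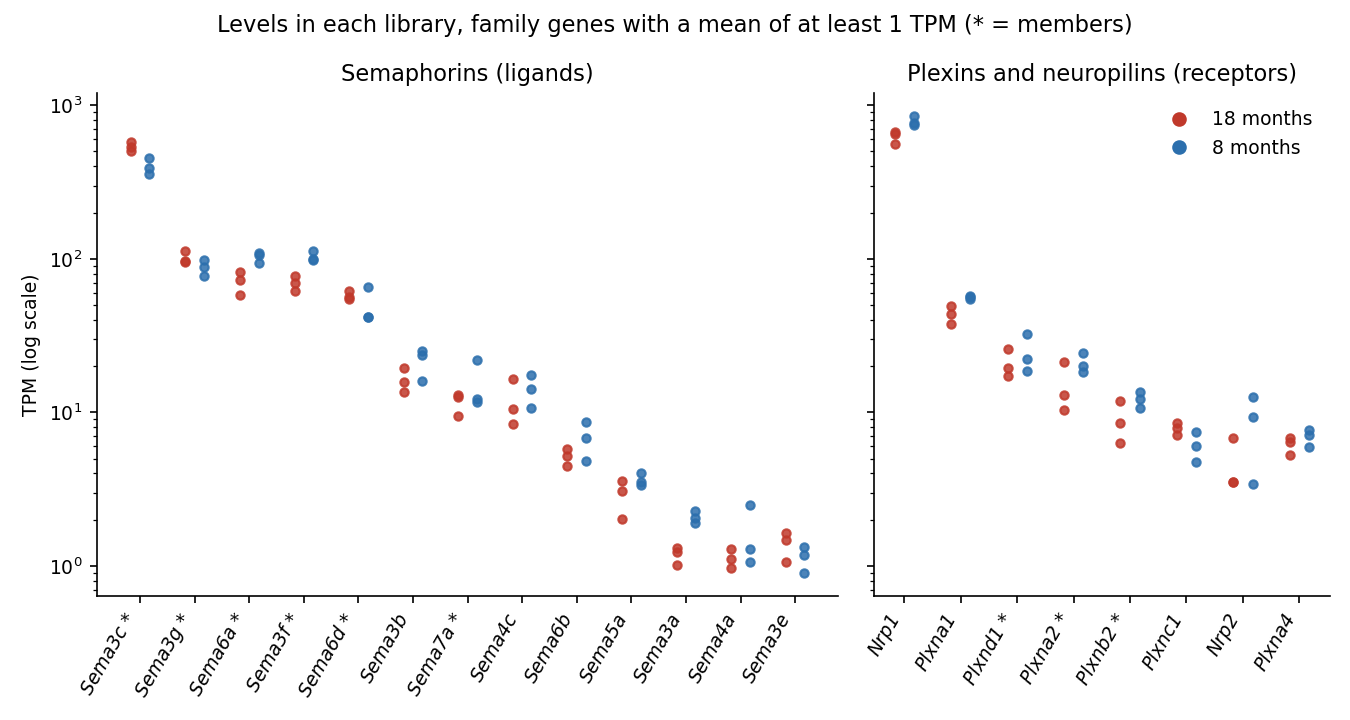
TPM on a log scale in each library for the semaphorins on the left and the plexins and neuropilins on the right, ordered by mean, with 18 months in red left of 8 months in blue and the 9 members starred. Sema3c and Nrp1 lie far above the other ligands and receptors at both ages.

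The receptors that would bind these ligands were unequal in level. Nrp1, the neuropilin that also serves as a co-receptor for VEGF, read 653.9, 557.9 and 673.3 TPM in 18-month cells, against 738.0, 760.5 and 846.9 TPM in 8-month cells, without overlap. Its log2 difference was -0.32 with an interval from -0.57 to -0.06 (limma adjusted p = 0.27). Nrp2, the neuropilin that Sema3f and Sema3g use, was low, with 6.80, 3.51 and 3.54 TPM in 18-month cells against 3.44, 12.6 and 9.30 TPM in 8-month cells, with overlap. The second and the third 8-month library were high in Nrp2 and also in the summed venous markers, which were 495.3, 407.9 and 516.4 TPM in 18-month cells, against 541.2, 1006 and 843.4 TPM in 8-month cells. All 7 venous markers had lower values at 18 months. The log2 difference of Nrp2 was -0.65, -1.13 without the first and -0.32 without the second 8-month library. The part of venous, capillary or lymphatic cells in the Nrp2 values was not tested. Sema3c amounted to 0.860 ± 0.0393 of Nrp1 at 18 months and 0.514 ± 0.0881 at 8 months (SD, n = 3 each). As Sema3c lay above and Nrp1 below all 8-month libraries, this ratio could not overlap either, and it was not tested.

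Plxna1, the most abundant plexin and a receptor of Sema6d, read 49.6, 37.4 and 43.4 TPM in 18-month cells, against 54.8, 56.8 and 57.4 TPM in 8-month cells. The groups did not overlap and the 8-month libraries were close together. The log2 difference was -0.38 with an interval from -0.65 to -0.10 (limma adjusted p = 0.24), and it was -0.23 when GC content and transcript length were adjusted for. Plxna4, a receptor of Sema6a, averaged 6.15 ± 0.774 TPM in 18-month and 6.92 ± 0.849 TPM in 8-month cells. Plxnc1, the plexin of Sema7a, averaged 7.86 ± 0.760 TPM in 18-month and 6.06 ± 1.35 TPM in 8-month cells, the one tested receptor in this family with a higher mean at 18 months. Summed over all 9 plexin genes, expression was 103.6 ± 19.8 TPM in 18-month and 128.6 ± 10.0 TPM in 8-month cells, with overlap (SD, n = 3 each).

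Of the 22 other semaphorins, plexins and neuropilins, 12 averaged 1 TPM or more and were tested, and 0 passed by limma, with 3 at an unadjusted p under 0.05, against 13.4% of all genes. Lower values at 18 months were seen in 10 and higher values in 2, where 66.2% of all genes were lower. The 3 whose ages did not overlap, Plxna1, Nrp1 and Sema3a, were all lower, and of all genes 14.2% lay lower without overlap. Sema3a, a secreted repellent of axons and vessels, was scarce, with 1.31, 1.24 and 1.02 TPM in 18-month cells against 2.28, 1.91 and 2.05 TPM in 8-month cells (limma adjusted p = 0.29). The transmembrane Sema4c, a ligand of Plxnb2, averaged 11.8 ± 4.21 TPM in 18-month and 14.1 ± 3.36 TPM in 8-month cells, and Sema6b 5.16 ± 0.637 and 6.73 ± 1.88 TPM, both with overlap. Plxnb3 was listed at 0 in all 6 libraries.

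Among 44 receptor partners and effectors of plexins, 37 were tested and 0 passed by limma, with a median log2 difference of -0.14. At an unadjusted p under 0.05 there were 9 lower and 1 higher, where all 12748 genes gave 1274 lower and 440 higher, 13.4% together. There were 28 lower and 9 higher values, and 66.2% of all genes were lower. The 6 with the smallest unadjusted p were as follows. Kdr, the main VEGF receptor of endothelium and a partner of Plxna1, read 401.8, 331.5 and 385.3 TPM in 18-month cells, against 520.1, 509.1 and 591.2 TPM in 8-month cells (limma adjusted p = 0.14). In the opposite direction, Vegfa, whose protein competes for neuropilin, read 84.3, 74.3 and 64.9 TPM in 18-month cells, against 49.2, 53.5 and 41.7 TPM in 8-month cells (limma adjusted p = 0.16).

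The adaptor Gipc1, which binds the tail of Nrp1 and of Plxnd1, read 38.5, 24.8 and 33.9 TPM in 18-month cells, against 51.8, 55.6 and 54.2 TPM in 8-month cells (limma adjusted p = 0.15). Dpysl5 is of the collapsin response mediator family that relays semaphorin signals in axons. It read 4.28, 3.83 and 7.79 TPM in 18-month cells, against 19.9, 13.0 and 10.2 TPM in 8-month cells (limma adjusted p = 0.16). Pip5k1c, a lipid kinase at sites of adhesion, averaged 28.4 ± 1.66 TPM in 18-month and 37.6 ± 2.32 TPM in 8-month cells. The pseudokinase Ptk7 averaged 0.469 ± 0.385 and 1.77 ± 0.382 TPM (limma adjusted p = 0.19 for both genes). Ptk7 lay near the lower limit of the test and reached it only through its 8-month values. It fell below that limit, and was not tested, when the second 8-month library was left out. With GC content and transcript length adjusted for, the log2 difference of Pip5k1c was -0.23, against -0.39 as reported. In each of these 6 genes the ages did not overlap. By the choice of smallest p this had to be frequent among them.

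Beside these values, marker sums of endothelial types differed between the ages. The 8 aerocyte markers, of the wide capillary cells of the alveolus, summed to 3962 to 4513 TPM at 18 months and 4877 to 6487 TPM at 8 months, all 8 with lower values at 18 months and 0 past the test. The 6 general capillary markers summed to 3791 to 3967 TPM at 18 months and 3271 to 3918 TPM at 8 months, with overlap. Of these, 4 had higher and 2 lower values at 18 months, and 0 passed the test. Cd93 averaged 511.8 TPM in 18-month and 414.2 TPM in 8-month cells, without overlap. Plvap went the other way, at 152.1 and 285.4 TPM, with overlap. Fibroblast markers summed to 8.77 to 11.4 TPM in 18-month and 17.0 to 32.3 TPM in 8-month cells, and those of smooth muscle and pericytes to 22.4 to 28.1 and 36.2 to 49.4 TPM. In both lists all 5 tested markers had lower values at 18 months and 0 passed the test. The 7 lymphatic markers summed to 759.4, 602.3 and 663.4 TPM in 18-month cells, against 1153, 917.2 and 1042 TPM in 8-month cells, without overlap. All 5 that were tested had lower values at 18 months, and 0 passed. Most of the sum was Lyve1, with means of 640.1 TPM in 18-month and 977.9 TPM in 8-month cells. The lymphatic chemokine Ccl21a averaged 1.57 ± 0.158 TPM in 18-month and 14.5 ± 9.56 TPM in 8-month cells (SD, n = 3 each), without overlap, and the lymphatic regulator Prox1 was at or below 0.0449 TPM in 18-month and 0.179 TPM in 8-month cells. Sema3c is known as a gene of general capillaries, and the part of cell-type shares in the differences of Sema3c, Sema3f and Sema6a was not tested.

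The genes whose library profile lay nearest to that of Sema3f were Kdr, Tnik and Grb14, with Euclidean distances of 0.079, 0.088 and 0.12 between deviations in log2(TPM + 1) over the 6 libraries. For Sema6a they were Pknox1, Tanc1 and Wasf2, at 0.075, 0.076 and 0.094. These were the nearest of 9436 genes averaging 5 TPM or more. The likeness is a description over 6 libraries.

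**Figure D5:**
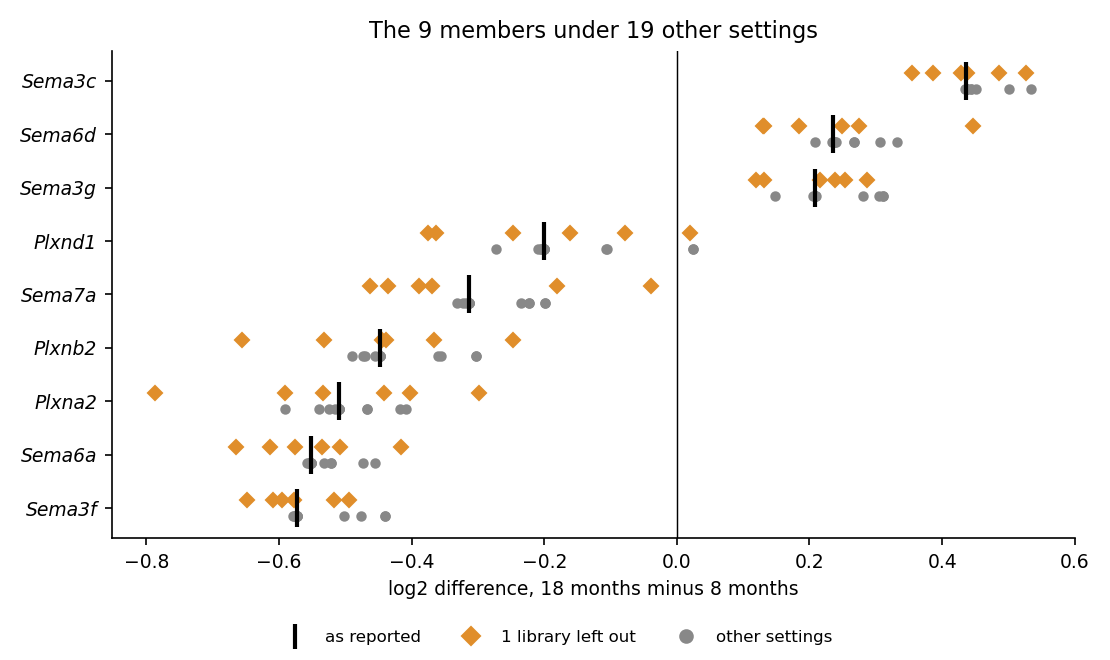
Log2 differences of the 9 members, 18 months minus 8 months, as reported (black bars), with 1 library left out (orange diamonds) and under the other settings (grey circles), 19 settings in all. Each member keeps its sign except Plxnd1, which reaches 0.02.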

How the data were processed

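The deposited values are TPM for 24520 Ensembl genes, as the authors made them with kallisto and the build mm10, per the submitters' processing notes. The sources used here give neither its version nor the transcript set, the way genes were summed or a strand setting. RNA was taken from sorted cells with kits for very small amounts, per the labels' protocols. Symbols and positions came from GENCODE M21 (GRCm38), which held 24299 of the identifiers, 221 being unmatched. No member shared an exonic base with another annotated gene.

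The 12748 genes averaging 1 TPM or more were kept and tested on log2(TPM + 1), in R 4.3.3 with limma 3.58.1 (moderated 2-sided test, intensity trend, age as sole term, Benjamini-Hochberg adjustment over all genes, threshold 0.05). Log2 differences on this scale understate changes of low genes. The test was tested on simulated data. Members and lists were chosen with earlier results of these data known. Named genes were all members; other family genes averaging 5 TPM or more or among the 4 smallest unadjusted p; and the 6 partners or effectors with the smallest p. Sema3e and Plxnb3 were named outside this rule, after their values were seen. So were the single cell-type markers, apart from Pecam1 and Cdh5, planned as a check of the endothelial label, and Kdr, named by the rule. The sums, shares and ratios of semaphorin and plexin TPM were added then too. Alternatives were other pseudocounts, filters, scalings, variance models, weighted libraries, a block on replicate number, a loess correction for GC content and transcript length, protein-coding genes alone and each library left out in turn.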

Additional observations from a re-analysis of the deposited data

How the results depend on the processing

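All 3 counts of genes past the test within the member, family and partner lists were 0, and they stayed 0 under all 19 other settings, with 1 exception: with library weights 1 member, Sema3f, passed. Over all genes, 3 passed as reported; the count was 0 with no filter on low values, 16 under median-of-ratios scaling and likewise 16 after quantile normalization, 94 with library weights, 5 after adjusting for GC content and length, 28 among protein-coding genes alone, and 0 to 2 with 1 library left out. Plxnd1 had a log2 difference above 0 in 3 settings, 0.025 after adjusting for GC content and length, 0.025 with the replicate block added to that, and 0.019 without the second 8-month library. With 1 library left out it ranged from -0.37 to 0.019. The other members and the genes named by the rule kept their sign in each setting that tested them, which was all 19 except for Sema3a (18) and Ptk7 (17). Sema3e, Plxnb3 and the single cell-type markers other than Kdr were not run. The median over the 9 members ranged from -0.40 to -0.18 with 1 library left out and from -0.33 to -0.20 otherwise. Before adjustment (p under 0.05) the split was 440 higher to 1274 lower genes as reported, 756 to 881 under median-of-ratios scaling and 751 to 979 under quantile normalization.

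Same-numbered libraries had deviations that correlated at -0.012, -0.090 and 0.057 across genes, against -0.069 to 0.083 between differently numbered ones. With 3 libraries per age, these values cannot settle whether the replicate numbers pair the samples. With the replicate number as a block 0 genes passed, also with the GC content and length correction, and no member passed in either. TPM keep no depth, so what depth limits could not be assessed.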
